A study of Mus musculus with 6 samples.

Results

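The Hox clusters of the mouse carry miRNA genes between their homeobox genes, and the NanoString panel held 6 probes for the mature products of these genes: mmu-miR-10a, mmu-miR-10b, mmu-miR-196a, mmu-miR-196b, mmu-miR-615-3p and mmu-miR-615-5p (the prefix for mouse is left out from here on). They were picked by name, with any arm of the hairpin allowed, from the 566 mouse miRNA probes among 599 probes in all. The study profiled miRNAs to search for those lower in Wnt/β-catenin dependent hepatocarcinoma (HCC). The *Apcfl/fl* group, 3 livers labelled as HCC, carries a hypomorphic *Apc* allele on both chromosomes, and the *Apc+/+* group consists of 3 livers labelled as healthy controls. Both share the C57Bl/6 background. No age, treatment or Cre driver is labelled for either genotype, and the study's methods describe hypomorphic mutants without naming a Cre for this comparison. All mutant livers are labelled as tumour and all wild-type livers as healthy, so that genotype and tumour cannot be told apart. The labels do not say whether each number is a separate animal, so p-values measure the spread between these 6 samples. The RNA was from whole tissue at 33 ng/ul, and in such bulk samples fewer cells of a type and less RNA per cell cannot be told apart.

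Hox genes encode the transcription factors that set the position of tissues along the head to tail axis of the embryo. The miRNAs that lie among them are transcribed with the cluster and in several known cases repress Hox mRNAs, so that they belong to the same positional programme as their hosts. A miRNA finds its mRNA targets mainly through its seed, bases 2 to 8 from the 5′ end, and paralogues with the same seed are expected to share targets. As background, miR-10a and miR-10b repress Hox genes and other mRNAs, and miR-196a and miR-196b repress *Hoxb8* and other Hox genes. MiR-615 lies within *Hoxc5*. The study counted miR-615 among the miRNAs that it listed as lower in *Apcfl/fl* than in *Apc+/+* liver in this profile. It also reported miR-615 as higher in a human liver cancer cell line after inhibition of the non-coding RNA under study. Its main text names no arm, so both arms are given in full.

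The mature sequences show which of the 6 probes could be mistaken for each other. They are RefSeq's for build GRCm38.p6, all 6 names matched, and capitals mark the seed.
miR-10a: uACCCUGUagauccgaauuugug
miR-10b: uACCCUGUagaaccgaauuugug
miR-196a: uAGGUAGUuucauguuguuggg
miR-196b: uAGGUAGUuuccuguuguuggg
miR-615-3p: uCCGAGCCugggucucccucuu
miR-615-5p: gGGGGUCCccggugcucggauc
Among 1679 mature mouse names in the table, the seed of miR-10a was held by 2, miR-10a and miR-10b, and the seed of miR-196a by 2, miR-196a and miR-196b, while each arm of miR-615 was the only holder of its seed. Counting from the 5′ end, miR-10a and miR-10b differ by the single substitution U12A, and miR-196a and miR-196b by the single substitution A12C, so both pairs differ at 1 base outside the seed.

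In GRCm38.p6 the mature miR-10a lies at chr11:96317186-96317208 on the plus strand, in the HoxB cluster within the annotated span of *Hoxb3* and next to *Hoxb4*. Mature miR-10b lies at chr2:74726074-74726096 on the plus strand, within the spans of *Hoxd3* and *Hoxd4*. MiR-196a has 2 genes, Mir196a-1 between *Hoxb13* and *Hoxb9* with the mature form at chr11:96265187-96265208, and Mir196a-2 between *Hoxc10* and *Hoxc9* at chr15:102973365-102973386, both on the plus strand. The probe cannot separate the products of these 2 genes, whose mature sequence is the same. MiR-196b lies between *Hoxa9* and *Hoxa10* at chr6:52230129-52230150 on the minus strand. The arms of miR-615 lie within the span of *Hoxc5* on the plus strand, the 5p arm at chr15:103014926-103014947 and the 3p arm at chr15:103014969-103014990. The deposited counts name no genome build, and no result here rests on these positions.

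The total count on mouse miRNAs was 82942 to 133331 per liver. Background was read from the 33 probes for miRNAs of mouse viruses, which have no intended target in these livers, and the mean plus 2 SD of these probes was taken as the limit of each liver. It stood at 20, 23.3 and 14.3 counts for *Apc+/+* livers 1 to 3, against 27.8, 13.1 and 19.2 for *Apcfl/fl* livers 1 to 3, or 0.0108% to 0.0289% of the mouse miRNA counts. The tissue was checked against its defining miRNA: miR-122, the main miRNA of hepatocytes, had 16793 to 29686 counts in *Apc+/+* and 6688 to 15416 counts in *Apcfl/fl* liver. Of 5 probes for miRNAs of nerve and muscle, 0 were above the limit in 5 of the 6 livers, and 1 was in *Apc+/+* liver 3.

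Of the 6 Hox cluster miRNAs, miR-10a alone was above the viral probe limit, in 6 of 6 livers, and the other 5 were above it in 0 of 6. None of the 6 was called different between the genotypes, and neither was any of the 174 tested miRNAs (0% lower and 0% higher). MiR-10a had a log2 fold change of -0.63 in *Apcfl/fl* against *Apc+/+* liver with an adjusted p of 0.25 in edgeR's test. The other 5 were under the count minimum set for that test. Over the panel, 19.3% of the mouse probes were above the limit in all 6 livers, 45.1% in 1 or more and 54.9% in none, and 6.06% of the viral probes themselves were above it in 1 or more. The count minimum for testing, a mean of 20, was reached by 1 of the 6, again miR-10a, and by 30.7% of the mouse probes. By mean count over the livers, miR-10a ranked 89 of 566 mouse probes with 86.7 counts, miR-196b ranked 284 with 9.5 counts, miR-196a 331 with 7.66 counts, miR-615-3p 427 with 5 counts, miR-10b 447 with 4.67 counts and miR-615-5p 555 with 1.39 counts. Each NanoString probe counts molecules one by one and counts do not scale with length, but probes may capture with unequal efficiency, so that this is an order of probes. From miR-196b downwards neighbours in this order did not differ beyond the spread between livers, with counts from 4.33 to 16.33 for miR-196b, 5.33 to 14.33 for miR-196a, 2.67 to 8.67 for miR-615-3p, 1.67 to 12.67 for miR-10b and 1 to 3.33 for miR-615-5p.

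**Figure D1:**
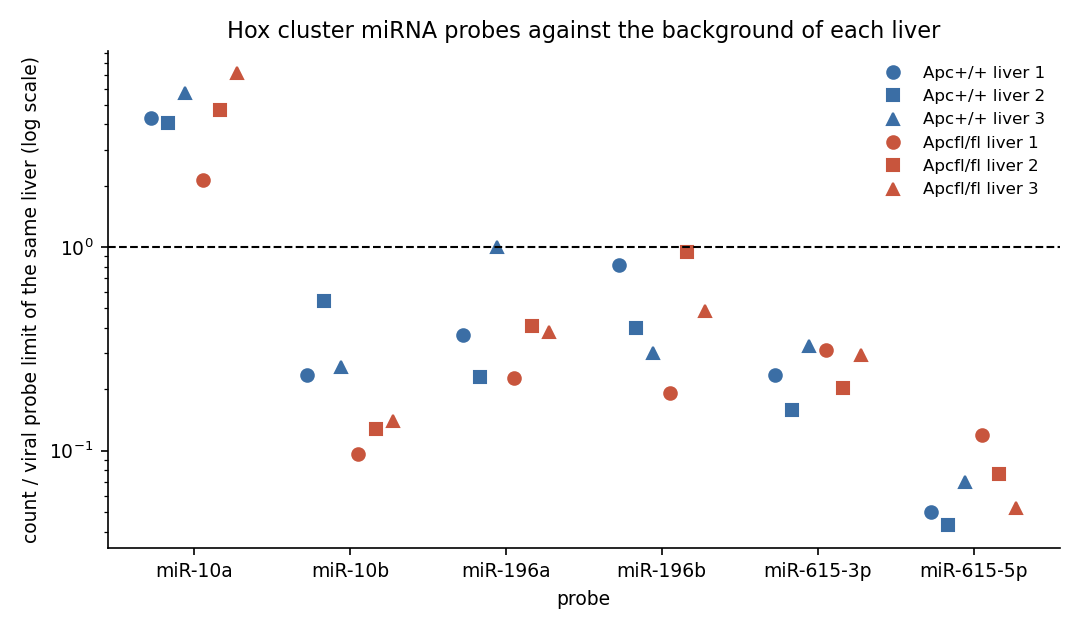
Count of each Hox cluster miRNA probe divided by the viral probe limit of the same liver (log axis), 1 point per liver, with *Apc+/+* in blue, *Apcfl/fl* in red and the limit as a dashed line at 1. MiR-10a lies between 2.14 and 7.12 times the limit, and the other 5 probes lie under it in all 6 livers.

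**Figure D2:**
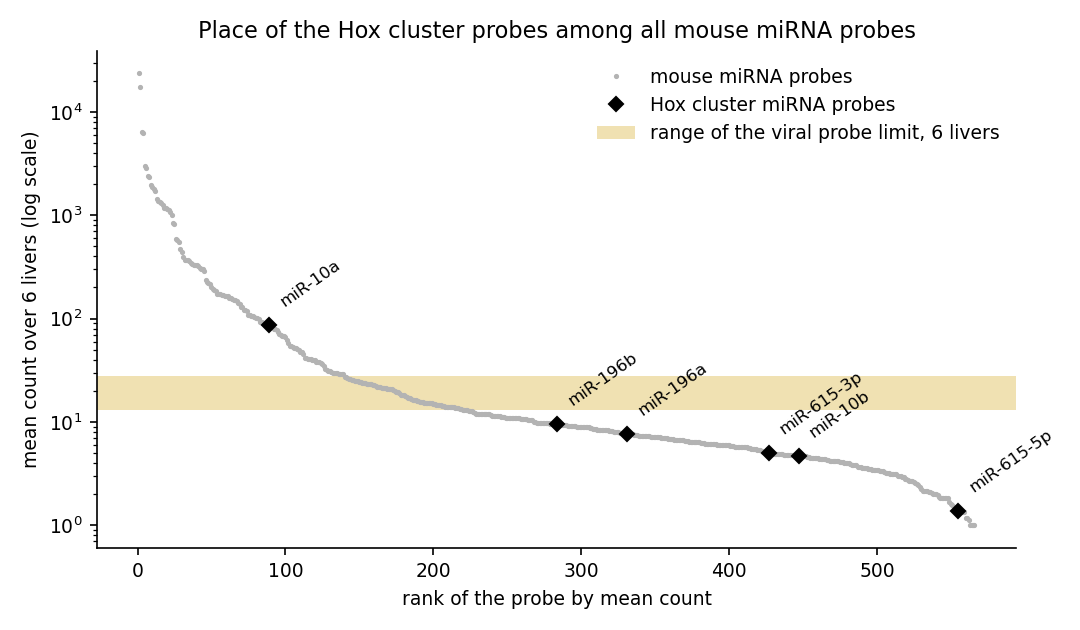
Mean count over the 6 livers (log axis) of the 566 mouse miRNA probes against their rank, in grey, with the Hox cluster probes as black diamonds and the range of the viral probe limit over the livers as a band. MiR-10a, at rank 89, lies above the band, and the other 5, at ranks 284 to 555, lie below it.

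MiR-10a (MIMAT0000648) was counted 85.67, 94.67 and 81.67 times in *Apc+/+* livers 1, 2 and 3, and 59.67, 61.67 and 136.67 times in *Apcfl/fl* livers 1, 2 and 3, as deposited. The *Apc+/+* livers were close to each other, while *Apcfl/fl* liver 3 stood highest of the 6 and the remaining 2 of its genotype lowest. In every liver 0 of the 33 viral probes reached the count of miR-10a, which was 4.07 to 5.69 times the limit in *Apc+/+* liver and 2.14, 4.71 and 7.12 times the limit in *Apcfl/fl* livers 1, 2 and 3. Between 72 and 107 of the mouse probes had a higher count in the same liver.

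As a share of all mouse miRNA counts, miR-10a made up 0.104% in *Apc+/+* liver 1 (95% confidence interval 0.0829% to 0.128%), 0.102% in liver 2 (0.0826% to 0.125%) and 0.0615% in liver 3 (0.0489% to 0.0763%). In the *Apcfl/fl* livers it made up 0.0622% (0.0475% to 0.0801%), 0.0602% (0.0462% to 0.0772%) and 0.103% (0.0868% to 0.122%). These Clopper-Pearson intervals were computed from the rounded deposited counts and cover counting error only. They take no account of the constant subtracted from each probe before deposition, so the counting error of the raw reads may be larger. On this denominator the 3 higher shares (*Apc+/+* livers 1 and 2 and *Apcfl/fl* liver 3) had such intervals apart from the 3 lower ones, with nearest ends of 0.0826% and 0.0801%. *Apc+/+* liver 3, the one low control, also gave the most of its counts, 33%, to one probe, miR-720, against 15.7% to 25.7% in the other livers. With miR-720 left out of the total, the share of miR-10a was 0.0914% to 0.125% in *Apc+/+* and 0.0787% to 0.122% in *Apcfl/fl* liver, and the genotypes still overlapped (two-sided exact permutation test, p = 0.3).

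After TMM normalization, which sets the libraries to the level of most tested miRNAs, miR-10a stood at 108.1, 116.2 and 100.3 in *Apc+/+* livers 1 to 3, and at 53.7, 65.3 and 89.7 in *Apcfl/fl* livers 1 to 3. On this scale all 3 *Apcfl/fl* livers lay below all 3 *Apc+/+* livers, as they did for 18.4% of the 174 tested miRNAs, while 15.5% lay higher without overlap and 33.9% did not overlap in either direction. Mean levels were 108.2 ± 7.95 (SD, n = 3) for *Apc+/+* against 69.6 ± 18.4 (SD, n = 3) for *Apcfl/fl* (p = 0.1 in the exact permutation test, two-sided, the smallest that 3 livers against 3 allow). In edgeR's quasi-likelihood test the log2 fold change was -0.63, with a standard error of 0.31 and a 95% confidence interval of -1.36 to 0.09 (Benjamini-Hochberg adjusted p = 0.25 over the 174 tested miRNAs). Its unadjusted p-value of 0.079 ranked 55 of 174. MiR-10a therefore did not pass the threshold of an adjusted p-value of 0.05, and the interval, in linear terms from 0.389 to 1.07 times the *Apc+/+* level, holds both no difference and a loss of more than 2-fold. No tested miRNA passed in this test in either direction (0%), and at an unadjusted p-value under 0.05 the share was 24.7%, 10.9% lower and 13.8% higher.

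The size of the difference depended on the scale. The mean deposited counts were 87.3 ± 6.66 and 86 ± 43.9 (SD, n = 3 in each genotype), a ratio of 0.985 (two-sided exact permutation test, p = 1). The mean shares of all mouse miRNA counts were 0.0891% ± 0.0239 and 0.0753% ± 0.0243 (SD, n = 3 in each genotype), a ratio of 0.845 (two-sided exact permutation test, p = 0.6). The ratio of the TMM-normalized means was 0.643. When libraries were scaled by their total count, miR-10a had a log2 fold change of -0.24, in a fit that moved the median of all tested miRNAs from 0.01 to 0.45. Set against the median of its own fit miR-10a stood at -0.69 with the total count and at -0.65 with TMM, so that the scalings differed in where they put the typical miRNA. With no filter on low counts, where all 566 mouse probes set the scale, it was -0.18, or -0.10 relative to the median.

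**Figure D3:**
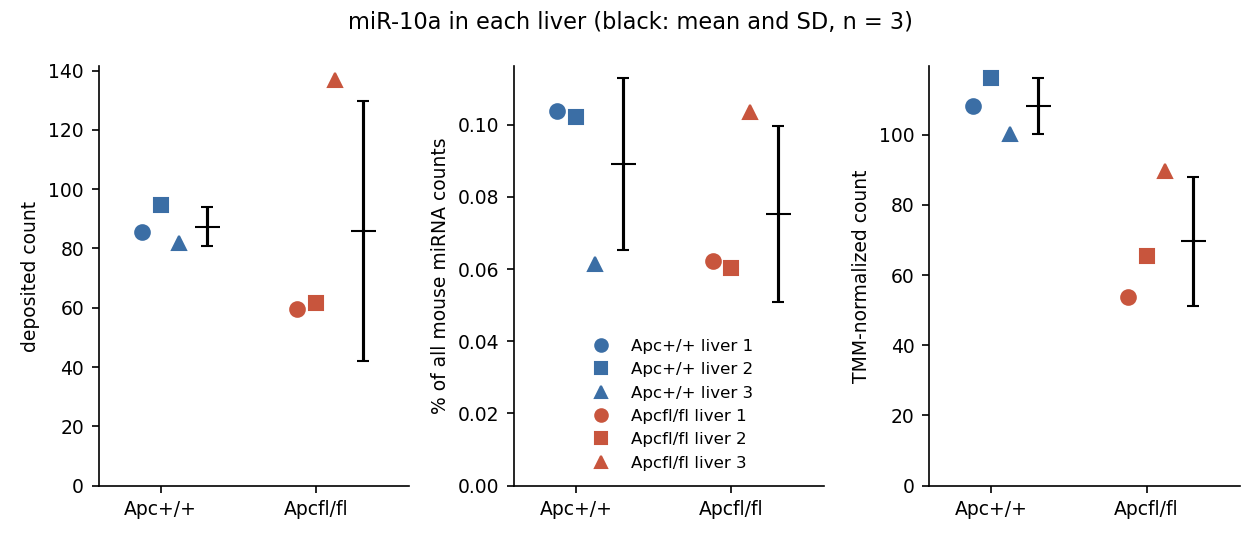
MiR-10a in each liver as the deposited count (left), as a percentage of all mouse miRNA counts (middle) and as the TMM-normalized count (right), with the mean and SD of 3 livers in black. The genotypes overlap on the left and in the middle, and on the right the *Apcfl/fl* livers (53.7 to 89.7) lie below the *Apc+/+* livers (100.3 to 116.2).

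Over 15 alternatives to this processing the log2 fold change of miR-10a lay between -0.88 and -0.18 and was negative in 15 of 15. Its adjusted p-value lay between 0.15 and 0.89, and 0 of the 15 brought it under 0.05. The strongest value, -0.88, came without *Apcfl/fl* liver 3, the liver with the highest deposited count, where the interval ran from -1.67 to -0.09 and the adjusted p in edgeR's test was 0.15.

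**Figure D4:**
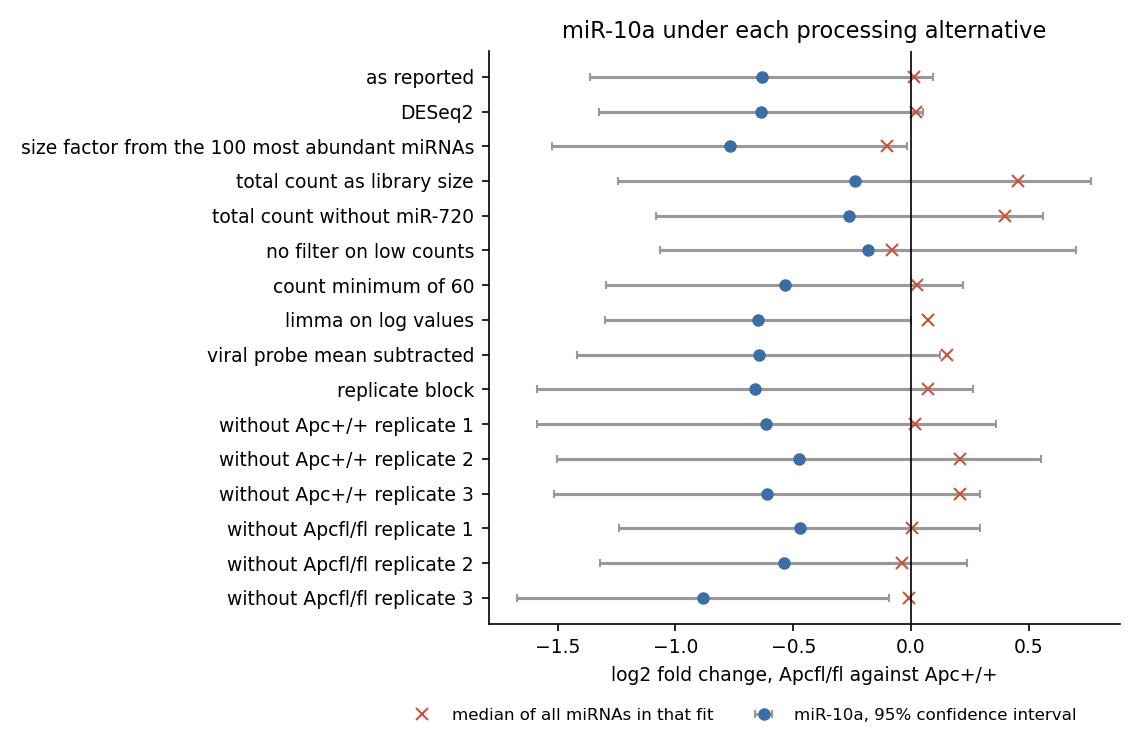
Log2 fold change of miR-10a (blue) with its 95% confidence interval under the reported processing and each of 15 alternatives, beside the median of all miRNAs in the same fit (red crosses). The estimates lie between -0.88 and -0.18, and 13 of the 16 intervals include 0.

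MiR-10b (MIMAT0000208), which carries the seed of miR-10a, gave 4.67, 12.67 and 3.67 counts across *Apc+/+* livers 1 to 3, against 2.67, 1.67 and 2.67 across *Apcfl/fl* livers 1 to 3. These counts were at most 0.544 times the limit, and 16 to 27 of the 33 viral probes in the same liver had at least as many. The counts of the 2 genotypes did not overlap, with *Apcfl/fl* lower (two-sided exact permutation test, p = 0.1). Among the 311 mouse probes above the limit in no liver, 6.43% lay lower without overlap in deposited counts and 1.61% higher. A fold change is not given, because both groups were under the limit. With no filter on low counts edgeR's test gave miR-10b an adjusted p of 0.33 over 566 probes (unadjusted 0.043). Its unadjusted p-values for the other low members were 0.31 for miR-196a, 0.73 for miR-196b, 0.75 for miR-615-3p and 0.56 for miR-615-5p.

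Since the 2 targets differ by U12A alone, a probe could in principle read some of the other miRNA. The counts of miR-10b were 13.4% of those of miR-10a in *Apc+/+* liver 2 and 1.95% to 5.45% in the other 5 livers, and in *Apcfl/fl* liver 3, where miR-10a was highest at 136.67, miR-10b stood at 2.67. How far the probes cross-read was not tested, and the constant subtracted from each probe before deposition stands between these values and the raw reads.

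MiR-196a (MIMAT0000518) gave 7.33, 5.33 and 14.33 counts across *Apc+/+* livers 1 to 3, against 6.33, 5.33 and 7.33 across *Apcfl/fl* livers 1 to 3. The highest value, in *Apc+/+* liver 3, stood at 0.999 times the limit of that liver, where 1 viral probe had at least as many counts. In the other livers 11 to 26 of the 33 viral probes did. The deposited counts of the genotypes overlapped (two-sided exact permutation test, p = 0.7).

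MiR-196b (MIMAT0001081) gave 16.33, 9.33 and 4.33 counts across *Apc+/+* livers 1 to 3, against 5.33, 12.33 and 9.33 across *Apcfl/fl* livers 1 to 3. It came nearest to the limit in *Apcfl/fl* liver 2, at 0.941 times, and in *Apc+/+* liver 1, at 0.818 times. The genotypes overlapped (two-sided exact permutation test, p = 1). The liver highest for miR-196b was thus not the liver highest for miR-196a, although both were near background.

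The letters of the miR-196 seed also stand in let-7, an abundant miRNA family known to restrain growth, but 1 base further from the 5′ end. Capitals mark the 7 shared letters, which start at base 2 of miR-196a and at base 3 of let-7c, the most abundant let-7 probe here.
miR-196a: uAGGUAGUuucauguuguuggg
let-7c: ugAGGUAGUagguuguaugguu
The 8 let-7 probes (a to g and i) summed to 8464 to 16124 counts per liver, and the counts of miR-196a were 0.0455% to 0.168% and those of miR-196b 0.0507% to 0.174% of that sum.

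MiR-615-3p (MIMAT0003783) gave 4.67, 3.67 and 4.67 counts across *Apc+/+* livers 1 to 3, against 8.67, 2.67 and 5.67 across *Apcfl/fl* livers 1 to 3, and 16 to 29 of the 33 viral probes had at least as many in the same liver. MiR-615-5p (MIMAT0004837) stood at the floor of the table, a count of 1, in 5 of 6 livers and at 3.33 in *Apcfl/fl* liver 1, with 27 to 33 of the viral probes at or above it. On deposited counts the two-sided exact permutation test gave p = 0.7 for miR-615-3p and p = 1 for miR-615-5p. The mean deposited counts of miR-615-3p were 4.34 ± 0.58 in *Apc+/+* and 5.67 ± 3 in *Apcfl/fl* liver (SD, n = 3 in each genotype). Neither arm of the *Hoxc5* miRNA was detectable at this depth in either genotype, and the same holds for miR-10b, miR-196a and miR-196b. These counts therefore cannot show the lower level in *Apcfl/fl* liver that the study listed for miR-615.

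Scaling moves probes at background on its own. TMM multiplied the counts by 1.23 to 1.26 in the *Apc+/+* livers and by 0.657 to 1.06 in the *Apcfl/fl* livers, so that a probe with the same count in all livers came out lower in *Apcfl/fl*. After this scaling 18.2% of the viral probes and 21.9% of the 311 mouse probes above the limit in no liver lay lower in *Apcfl/fl* liver without overlap, against 0% and 6.43% before it. In the other direction the shares were 0% and 0.322% after scaling, against 3.03% and 1.61% before it. MiR-196a was among the probes that no longer overlapped, with 6.54 to 17.6 normalized counts in *Apc+/+* and 4.81 to 5.69 in *Apcfl/fl* liver, and its deposited counts overlapped. MiR-10a, at 2.14 to 7.12 times the limit, was scaled by the same factors. Among the 174 tested miRNAs 18.4% lay lower and 15.5% higher without overlap on that scale. The part of the scaling in the values of miR-10a was not tested.

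MiR-10a was set beside the other miRNAs of the mir-10 family, which are grouped with it by descent but are encoded outside the Hox clusters, as 5 probes for miR-99a, miR-99b, miR-100, miR-125a-5p and miR-125b-5p. MiR-100 is the most alike of the 5: the capitals mark the longest run it has in common with miR-10a, 11 letters from base 7 of miR-10a and from base 6 of miR-100. The run is 10 letters for miR-99a and 5 letters each for miR-99b, miR-125a-5p and miR-125b-5p.
miR-10a: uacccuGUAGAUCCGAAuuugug
miR-100: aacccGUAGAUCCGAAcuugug
All 5 relatives were tested, 3 of them fitted lower and 2 higher in *Apcfl/fl* liver (49.4% and 50.6% of all tested miRNAs), with 0 past an adjusted p-value of 0.05 in edgeR's test and 4 at an unadjusted p-value under 0.05, 2 lower and 2 higher (10.9% and 13.8% of all tested miRNAs). Their log2 fold changes ran from -1.37 for miR-100 to 1.68 for miR-99b, with a median of -0.43 beside 0.01 for all tested miRNAs. Set against the median of its own fit, it stood at -0.45 with TMM and at -0.48 by total count. It turned to 0.71 from a count minimum of 60, which leaves out miR-100, and with no filter it was -0.032, or 0.05 relative to the median. The most abundant, miR-125b-5p, averaged 1141 ± 193 normalized counts for *Apc+/+* against 592 ± 95.3 for *Apcfl/fl* (SD, n = 3 per genotype). Its log2 fold change was -0.95, with a standard error of 0.22 (adjusted p = 0.056 in edgeR's test), and 3 of 15 alternatives brought it under 0.05. The 2 relatives fitted higher had larger differences: miR-125a-5p had a log2 fold change of 1.58 (adjusted p = 0.064 in edgeR's test) and was under 0.05 in 7 of 15 alternatives, and miR-99b had 1.68 (adjusted p = 0.069) and was under 0.05 in 6 of 15. The family thus held fitted differences in both directions, with miR-10a at -0.63. Of the let-7 list, 9 probes with miR-98 included were tested, 4 fitted lower and 5 higher, with 0 past the threshold and 3 at an unadjusted p-value under 0.05, 2 lower and 1 higher (24.7% of all tested miRNAs in either direction), and with a median of 0.31. That median was 0.66 by total count, 0.74 with no filter and 0.14 without *Apcfl/fl* liver 2. Let-7c itself had a log2 fold change of 0.31 (adjusted p = 0.42 in edgeR's test).

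Within a liver the share of miR-10a in the family needs no scaling between livers, but it depends on the other probes in the sum. MiR-10a and its 6 relatives, miR-10b among them, summed to 1202 to 2026 deposited counts per liver. Of that sum miR-125b-5p made up 63.3% to 67% in *Apc+/+* and 29.6% to 52.2% in *Apcfl/fl* liver. For miR-125a-5p the share was 7.78% to 10.3% in *Apc+/+* and 20.7% to 42.1% in *Apcfl/fl* liver. A lower share is therefore not by itself a lower level of miR-10a. MiR-10a made up 6.17%, 5.9% and 6.79% of that sum for *Apc+/+* livers 1 to 3, against 3.9%, 3.82% and 6.74% for *Apcfl/fl* livers 1 to 3. *Apcfl/fl* liver 3 lay within the range of the *Apc+/+* livers and the other 2 *Apcfl/fl* livers below it (two-sided exact permutation test, p = 0.3). MiR-10b made up 0.305% to 0.789% in *Apc+/+* and 0.104% to 0.174% in *Apcfl/fl* liver, from counts under the limit.

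**Figure D5:**
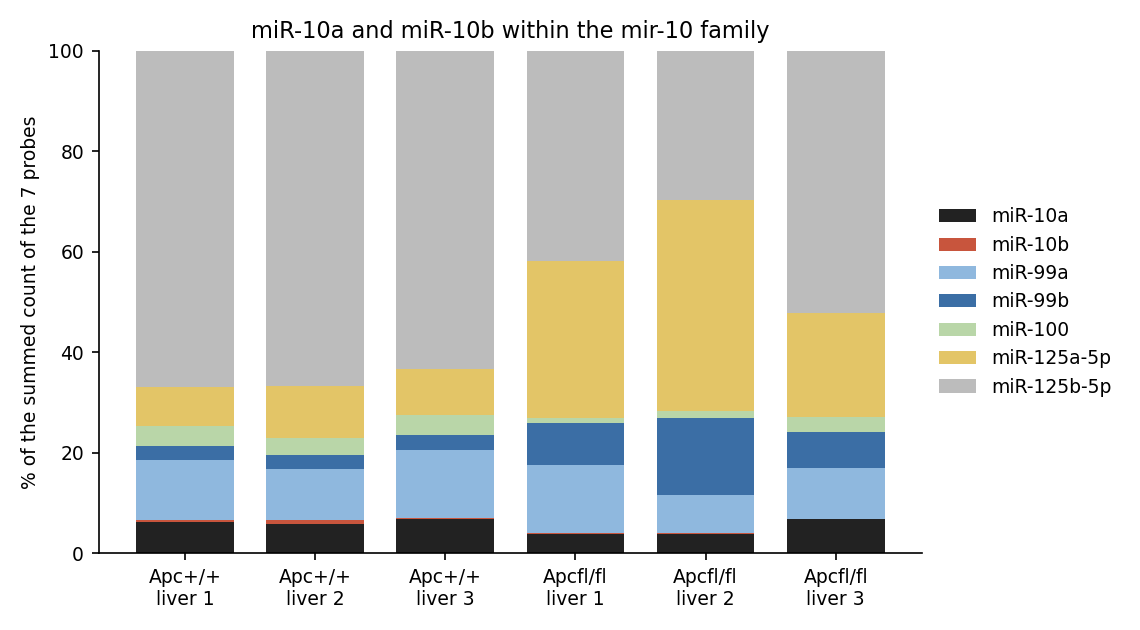
Share of each probe in the summed count of the 7 mir-10 family probes, 1 stacked bar per liver, in percent. MiR-10a, the lowest segment, makes up 5.9% to 6.79% in *Apc+/+* liver and 3.82% to 6.74% in *Apcfl/fl* liver, and miR-10b is a thin line above it.

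The tested miRNAs most like miR-10a over the 6 livers, by Pearson's correlation of normalized log2 values with 173 others, were miR-100 (r = 0.99), let-7a (r = 0.96) and miR-126-3p (r = 0.96). The 6 points share their libraries and the scaling, and the difference between genotypes enters each correlation. MiR-100 stood at 69.8, 64.2 and 59.4 normalized counts across *Apc+/+* livers 1 to 3 and at 13.8, 22.6 and 38.3 across *Apcfl/fl* livers 1 to 3, so that, as for miR-10a, *Apcfl/fl* liver 1 was the lowest of the 6 livers and liver 3 the highest of its genotype. In that lowest liver the deposited count of miR-100, 15.33, was under the limit of 27.8, and in the other 5 livers it was above the limit. Let-7a stood at 1022, 1326 and 1541 and miR-126-3p, an endothelial miRNA, 2475, 2571 and 3182 normalized counts in *Apcfl/fl* livers 1, 2 and 3, in the same order. In the RefSeq gene order the miRNA genes nearest to Mir100 are Mirlet7a-2, 1 of the genes of let-7a, and Mir125b-1. MiR-125b-5p stood at 575, 506 and 694 normalized counts in *Apcfl/fl* livers 1, 2 and 3, lowest in liver 2 and so in another order. Mir125b-1 is only 1 of its genes, as Mir125b-2 lies near Mir99a, and the probe does not tell their products apart.

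The markers of cell types are given on the normalized scale, on which the genotypes did not overlap for miR-10a. The 5 hepatocyte probes summed to 27980 to 43732 counts in *Apc+/+* and 9416 to 15692 in *Apcfl/fl* liver. The 5 mesenchymal probes summed to 894 to 1318 and 322 to 725, the 2 endothelial probes for miR-126 to 3585 to 3807 and 2764 to 3552, and the 7 blood cell probes to 1163 to 1597 and 1020 to 4846. In deposited counts the sums overlapped for the mesenchymal probes (708 to 1073 in *Apc+/+* and 358 to 1104 in *Apcfl/fl*) and for the endothelial probes (2918 to 3016 and 2771 to 5410), and the hepatocyte sums did not overlap (22171 to 35604 and 10468 to 21128). Fitted values were lower for 5 of 5 tested hepatocyte, 4 of 4 mesenchymal, 2 of 2 endothelial and 1 of 6 blood cell probes, with 0 past the adjusted threshold of edgeR's test, and 4, 2, 0 and 0 lower at an unadjusted p-value under 0.05 (10.9% of all tested miRNAs). Of the blood cell probes 2 were higher at that level (13.8% of all tested miRNAs), miR-223 and miR-155. MiR-155 stood at the floor of 1 in all *Apc+/+* livers and in *Apcfl/fl* liver 1, and at 78.33 and 58.33 in *Apcfl/fl* livers 2 and 3. It reached the count minimum through these 2 livers alone and its groups overlapped, so no change is read from its p-value. Single probes carry much of these sums, and miR-126-3p, the larger of the endothelial probes, overlapped between the genotypes on its own. Their part in the values of miR-10a was not tested.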

How the data were processed

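The authors deposited estimated counts per probe, not scaled between samples. NanoString processing followed the manufacturer's protocol per the labels; the counting software is not given in the sources used here. In 584 of 584 probes with at least 2 values above 1, these values share their decimal part, so a constant per probe had been subtracted, and 12.4% of 3594 values stand at a floor of 1. Every value column belonged to 1 liver (0 without a sample).

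Counts were rounded. Mouse miRNAs with a mean deposited count of at least 20 (174 of 566) were compared between genotypes with edgeR 4.0.16 in R 4.3.3 (quasi-likelihood test, TMM, Benjamini-Hochberg adjustment over the 174; prior count 2 for log values), without a block. Neither library sizes nor tests held the viral probes. The background limit came from viral probes, since no negative control probes were used here. Single values were compared with exact permutation tests, of which those on deposited counts and shares were added after seeing the data. A probe under the count minimum has no fold change. A test of the ratio of miR-10b to miR-10a between genotypes had been planned only for counts above background and was not run; the ratio is given per liver as a description.

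Every member is named. Named beside them are the 3 miRNAs most correlated with miR-10a, the most abundant related miRNA of each list, miR-720 for the scaling and miR-122 for the tissue. MiR-99a and the cell type markers serve as lists. The values of miR-99b, miR-125a-5p and miR-155 and the name of miR-223 were added after they were seen. The members, lists and tests were chosen with earlier results of these data known.

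Alternative settings: DESeq2 1.42.0, scaling by the top 100 miRNAs by abundance, library size as the total count with or without miR-720, no filter, a count minimum of 60, limma 3.58.1 with a trend, subtraction of the viral probe mean, the replicate number as a block, each liver left out in turn, and limits at the mean plus 3 SD or the highest viral probe. No 2 livers of a genotype were duplicates (chi-square over degrees of freedom 17.2 to 89.1).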

Additional observations from a re-analysis of the deposited data

How the results depend on the processing

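MiR-10a stayed above background in 6 of 6 livers, and the other 5 probes in 0, with a limit of the mean plus 3 SD or of the highest viral probe. Leaving out 1 liver, its log2 fold change ranged from -0.88 to -0.47, the former without *Apcfl/fl* replicate 3. No pairing by replicate number was seen (same-numbered livers correlated at -0.06, -0.06 and 0.12), though these correlations cannot exclude one. In the fit with the replicate block miR-10a was at -0.66, with 3 miRNAs lower and 4 higher past the adjusted threshold.

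Elsewhere the number past that threshold, 0 lower and 0 higher (19 and 24 at an unadjusted p-value under 0.05), became 9 and 20 under DESeq2, 6 and 1 when scaled by the top 100 miRNAs, 1 and 16 by total count, 3 and 18 by total count leaving out miR-720, 6 and 12 from the count minimum of 60, 3 and 1 under limma, and 7 and 12 after subtracting the viral probe mean. Leaving out 1 liver gave 0 to 8 lower and 0 to 11 higher, the highest of each without *Apcfl/fl* replicate 3, and 3 and 5 without *Apcfl/fl* replicate 2. The causes were not tested.

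The median of the mir-10 relatives was -0.026 by total count, -0.042 leaving out miR-720, -0.032 with no filter and 0.71 from the count minimum of 60, which miR-100 did not reach. The let-7 median was 0.66, 0.66 and 0.74 under the first 3 of these. Total count scaling moved all tested miRNAs: relative to their median the relatives were at -0.48 and -0.44 (-0.45 with TMM) and let-7 at 0.21 and 0.26 (0.29 with TMM). Leaving out 1 liver gave -0.61 to -0.29 and 0.14 to 0.46, the smallest let-7 value without *Apcfl/fl* replicate 2. A probe under 0.0108% to 0.0289% of the counts of a liver cannot be told from background at this depth. The test of the ratio of miR-10b to miR-10a between genotypes and its alternatives were not run, because miR-10b was under the limit in every liver.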
